A study of Mus musculus with 8 samples.

Results

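The 10 genes described here encode the enzymes and carriers of the malate-aspartate shuttle (Got1, Got2, Mdh1, Mdh2, Slc25a11, Slc25a12, Slc25a13) and of the glycerol phosphate shuttle (Gpd1, Gpd1l, Gpd2). They were taken by symbol from a table of read counts that holds 24537 genes, and all 10 were found and passed the filter on low counts. RNA was sequenced from pancreatic islets of untreated 12-week-old male mice, in 4 WT samples and 4 samples labelled Wfs1KO, which carry a knockout of Wfs1, the gene of the endoplasmic reticulum membrane protein wolframin. The strain, the knockout allele and whether a sample is 1 mouse or a pool are not given in the sources used here, so p-values measure the spread between these samples.

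Glycolysis makes NADH in the cytosol, and the inner mitochondrial membrane does not let NADH through. In the malate-aspartate shuttle, cytosolic malate dehydrogenase hands the electrons to malate, which enters the mitochondrion in exchange for 2-oxoglutarate. Mitochondrial malate dehydrogenase recovers NADH there, and a pair of aminotransferases with the aspartate-glutamate carriers return the carbon skeleton to the cytosol as aspartate. In the glycerol phosphate shuttle, a cytosolic dehydrogenase makes glycerol 3-phosphate with NADH, and the FAD-linked dehydrogenase encoded by Gpd2, on the outer face of the inner membrane, passes the electrons to ubiquinone. Beta cells hold little lactate dehydrogenase and little plasma membrane lactate transporter, and both shuttles have been linked to insulin release in response to glucose.

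Libraries held between 15810830 and 27057617 counts in exons. Of 15733 genes that passed the filter, 18.9% were called between the genotypes (Benjamini-Hochberg adjusted p under 0.05 in edgeR's quasi-likelihood test over all tested genes). The deleted part of Wfs1 is not given in the sources used here, and reads of Wfs1 remained in the Wfs1KO libraries. The WT replicates by number held 182, 156, 190.1 and 188 CPM (counts scaled to library size) and the Wfs1KO replicates 101.1, 105, 125 and 98.9 CPM, 59.9% of the WT level with no overlap (log2 fold change -0.74, SE 0.08, adjusted p = 5.06e-05). The first principal component (37.9% of variance) set replicates 1 and 2 of both genotypes apart from replicates 3 and 4. The defining beta cell genes were present in every library. Of 10 beta cell markers 8 were lower in Wfs1KO and 1, Iapp, higher (median log2 fold change -0.65, summed level 163206 to 209021 CPM in WT and 110443 to 135696 CPM in Wfs1KO). Iapp was not called with the replicate block, an acinar marker score as covariate, DESeq2's scaling in edgeR or no filter on low counts. Nor was it called in replicates 1 and 2 alone or in replicates 3 and 4 alone. With 1 library left out, Iapp was called only without WT replicate 4. Endothelial markers were higher (12 of 14, median 0.50, summed level 665 to 753 CPM in WT and 900.04 to 1056 CPM in Wfs1KO), as were 4 of 14 stellate cell and pericyte markers (median 0.63) and 4 of 7 delta and PP cell markers (median 0.39). The delta and PP cell count fell to 1 without Wfs1KO replicate 2, to 2 when any of WT replicates 2 and 3 and Wfs1KO replicates 1 and 3 was left out, and to 0 in replicates 3 and 4 alone. The stellate cell and pericyte count was 7 without Wfs1KO replicate 3, 6 without Wfs1KO replicate 4 and 13 in replicates 1 and 2 alone. Of 15 tested acinar markers 1 rose (median -0.36), 6 were lower in replicates 1 and 2 alone, and their sum ran from 33070 to 74397 CPM in WT and from 10418 to 70710 CPM in Wfs1KO. Alpha cell markers (1 of 8 higher, 2 lower, median 0.04), ductal markers (1 of 8 higher, 1 lower, median -0.19) and macrophage markers (0 of 8 in edgeR and in DESeq2, 0 at an unadjusted p under 0.05, median 0.42) were mixed or not called, and with 1 library left out the counts in each direction ran from 1 to 2 (alpha cell) and from 0 to 1 (ductal). No marker was at 0 in all libraries. With a score of the acinar markers as a covariate, the log2 fold changes of the 3 shuttle genes that passed the test were -1.25 (Gpd2), 0.63 (Got1) and 0.32 (Mdh1), and all 3 stayed called. The part of the differences in other cell type markers in the results that follow was not tested, and in whole islets fewer cells of a type and less RNA per cell cannot be told apart.

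Of the 10 shuttle genes, Gpd2 fell, Got1 and Mdh1 rose, and 7 did not pass the test. Gpd2, which encodes the mitochondrial step of the glycerol phosphate shuttle, was 2.30-fold lower in Wfs1KO islets (137 ± 16.7 CPM in WT, 59.5 ± 5.19 CPM in Wfs1KO, mean ± SD, n = 4 each). Got1, the cytosolic aspartate aminotransferase gene, stood at 149.9% of its WT level (27.6 ± 1.81 to 41.3 ± 3.54 CPM), and Mdh1, the cytosolic malate dehydrogenase gene, was 1.26-fold higher (175 ± 9.66 to 220.2 ± 12.4 CPM). The mitochondrial partners Got2 and Mdh2 and the carriers of the inner membrane did not pass. Over all tested genes 10.4% were called higher and 8.49% lower, so 2 and 1 of 10 members are close to the share among all genes. The libraries of the genotypes did not overlap for these 3 genes (all Wfs1KO above all WT for 2, below for 1), against 22.6% of all tested genes (12.3% above and 10.3% below). The median log2 fold change was 0.05 over the 10 members and 0.01 over all tested genes.

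**Figure D1:**
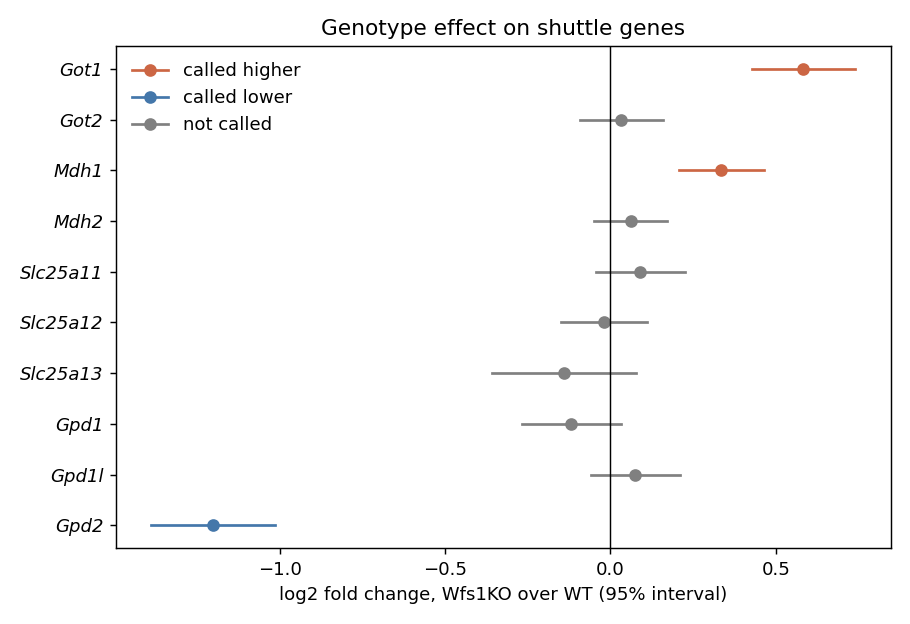
Log2 fold change of each shuttle gene, Wfs1KO over WT, with its 95% interval from edgeR's quasi-likelihood fit. Got1 (0.58) and Mdh1 (0.34) lie above 0 and Gpd2 (-1.20) below it, and the intervals of the other 7 genes include 0.

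Got1 (NM_010324, chromosome 19, 43499753 to 43524605 in mm10, minus strand) (coordinates throughout are those of mm10, as in the deposited table) makes oxaloacetate and glutamate from aspartate in the cytosol. Its level was 29.5, 25.2, 28.2 and 27.3 CPM in WT replicates 1 to 4. In Wfs1KO replicates 1 to 4 it was 40.9, 44.8, 36.6 and 42.95 CPM. All 4 Wfs1KO libraries lay above all 4 WT libraries, with replicate 3 the lowest of the Wfs1KO libraries. The log2 fold change was 0.58 (SE 0.07, 95% interval 0.43 to 0.74, adjusted p = 1.00e-04). It stood at 0.62 in replicates 1 and 2 alone (adjusted p = 3.69e-05) and at 0.51 in replicates 3 and 4 alone (adjusted p = 0.00437). None of the exon bases of Got1 in GENCODE M21 are shared with another gene.

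The 250 bases before the start of Got1 are shown because it had the larger rise of the 2 genes that rose, and because this window alone among the members' windows held the letters TGATGNAA, a form of the C/EBP-ATF composite site bound by ATF4 with C/EBP partners. The sequence is that of RefSeq (GRCm38.p6, the same build as mm10, chr19:43524606-43524855, minus strand), with the match in capitals.
Got1 promoter: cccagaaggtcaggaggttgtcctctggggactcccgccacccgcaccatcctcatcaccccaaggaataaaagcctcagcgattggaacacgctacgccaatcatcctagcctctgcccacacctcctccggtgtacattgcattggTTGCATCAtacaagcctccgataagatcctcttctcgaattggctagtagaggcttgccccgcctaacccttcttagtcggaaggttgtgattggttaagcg
The match reads TTGCATCA, the reverse complement of those letters, and lies 102 to 95 bases before the start. The same letters, searched on both strands, occurred in 3.45% of 32817 RefSeq windows of this length.

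Got2 (NM_010325, chromosome 8, 95864137 to 95888365, minus strand) encodes the mitochondrial aspartate aminotransferase. WT replicates 1 to 4 held 36.4, 32.2, 36.3 and 36.5 CPM, and the Wfs1KO replicates in the same order 34.9, 36.2, 36.9 and 36.6 CPM. Apart from the lower WT replicate 2, the libraries of both genotypes fell within a narrow range and overlapped. The log2 fold change was 0.03 (SE 0.06, 95% interval -0.09 to 0.16, adjusted p = 0.762). Of all 50-base words in its transcripts, 25.6% also occur in transcripts of other genes, among them the pseudogene Got2-ps1, and how such reads were counted is not given in the sources used here, so the level of Got2 is uncertain.

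Mdh1 (NM_001316675, chromosome 11, 21556692 to 21571934, minus strand) uses cytosolic NADH to turn oxaloacetate into malate. Its level was 174, 161, 182 and 181 CPM in WT replicates 1 to 4. In Wfs1KO replicates 1 to 4 it was 219, 231, 228 and 203 CPM. The groups did not overlap, with a gap between 182 CPM in the highest WT library and 203 CPM in the lowest Wfs1KO library. The log2 fold change was 0.34 (SE 0.06, 95% interval 0.21 to 0.46, adjusted p = 0.00135). In replicates 1 and 2 alone it was 0.41 (adjusted p = 8.09e-04), and in replicates 3 and 4 alone it was 0.24 and did not pass (adjusted p = 0.0518). Its exons share 52 bases with Wdpcp on the other strand, and no strand option was given in the counting.

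Mdh2 (NM_008617, chromosome 5, 135778649 to 135790386, plus strand) encodes the mitochondrial malate dehydrogenase, which also serves the tricarboxylic acid cycle. WT replicates 1 to 4 held 115, 112, 122 and 117 CPM, and the Wfs1KO replicates in the same order 125, 125, 122 and 114 CPM. The genotypes overlapped, and Wfs1KO replicate 4 lay within the WT range. The log2 fold change was 0.06 (SE 0.05, 95% interval -0.05 to 0.17, adjusted p = 0.470), which leaves room for a rise of up to 1.13-fold at that confidence.

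The 3 carrier genes of the malate-aspartate shuttle did not pass the test, and the genotypes overlapped for each of them. Slc25a11 (NM_024211, chromosome 11, 70644027 to 70647039, minus strand), the carrier that exchanges 2-oxoglutarate for malate, ranged from 48.8 to 59.9 CPM in WT and from 55.9 to 60.1 CPM in Wfs1KO. Its log2 fold change was 0.09 (95% interval -0.05 to 0.23, adjusted p = 0.364). Slc25a12 (NM_172436, chromosome 2, 71274295 to 71367554, minus strand) encodes aralar, the calcium-responsive aspartate-glutamate carrier of excitable tissues, and ranged from 68.0 to 82.6 CPM in WT and from 73.1 to 77.1 CPM in Wfs1KO. Its log2 fold change was -0.02 (95% interval -0.15 to 0.11, adjusted p = 0.866), with the Wfs1KO libraries all inside the WT range. Slc25a13 (NM_001177572, chromosome 6, 6041218 to 6217173, minus strand) encodes citrin, the paralog of aralar that predominates in liver. It had the fewest reads of the members, 139 to 273 counts per library, and ranged from 8.60 to 10.4 CPM in WT and from 7.98 to 9.56 CPM in Wfs1KO. Its log2 fold change was -0.14 with the widest interval of the 10 genes (-0.36 to 0.08, adjusted p = 0.382). Rnf167, on the other strand, shares 8.92% of the exon bases of Slc25a11.

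**Figure D2:**
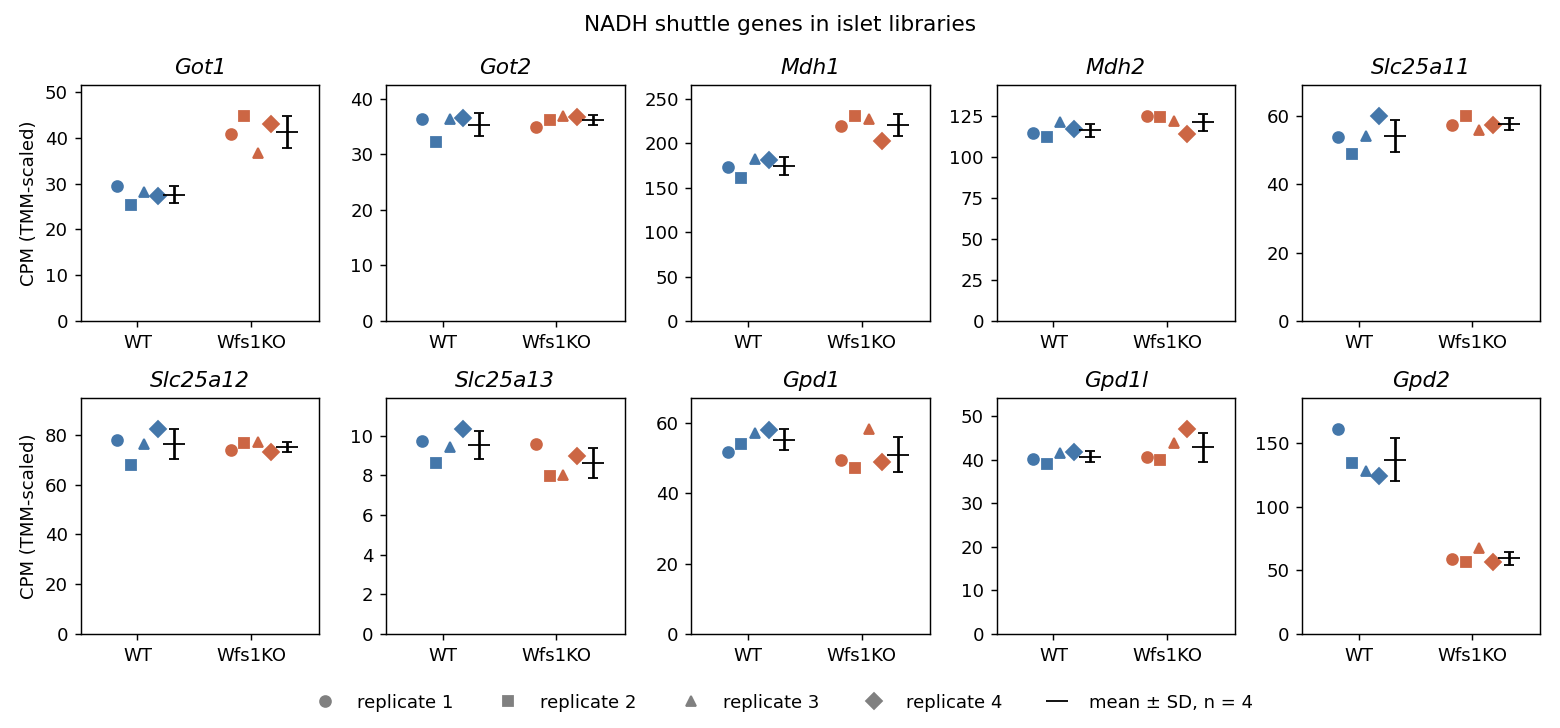
Level of each shuttle gene in each library in CPM on TMM-scaled library sizes, with 1 marker per replicate number and the mean ± SD of each genotype (n = 4) as a bar. Every axis starts at 0. Wfs1KO libraries lie above all WT libraries for Got1 and Mdh1 and below all of them for Gpd2, and the genotypes overlap for the other 7 genes.

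Gpd2 (NM_010274, chromosome 2, 57238382 to 57370719, plus strand) encodes the mitochondrial glycerol 3-phosphate dehydrogenase, an enzyme that calcium stimulates from the intermembrane side. Its level was 161, 134, 128 and 124 CPM in WT replicates 1 to 4. In Wfs1KO replicates 1 to 4 it was 58.6, 56.2, 67.1 and 56.1 CPM. The groups lay far apart, and the lowest WT library held 124 CPM against 67.1 CPM in the highest Wfs1KO library. The log2 fold change was -1.20 (SE 0.09, 95% interval -1.39 to -1.02, adjusted p = 1.87e-06), and Wfs1KO kept 43.4% of the WT level. Among all genes, 50 of the 15733 tested genes had a lower log2 fold change. Replicates 1 and 2 alone gave -1.38 (adjusted p = 2.28e-11) and replicates 3 and 4 alone -1.04 (adjusted p = 3.14e-05), and the difference between these values was not tested. In the authors' deposited table the log2 fold change of Gpd2 was -1.15 (adjusted p = 2.46e-37), and those of Got1 and Mdh1 were 0.55 and 0.32.

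RefSeq gives Gpd2 a pair of transcript starts, at 57237678 and at 57238382, and the entry that was counted begins at the second. The stretches before both are shown because Gpd2 had the largest change of the members. Each is cut where GENCODE M21 places an exon of Gpd2, at chr2:57237428-57237634 and chr2:57238132-57238296 (GRCm38.p6, plus strand, from RefSeq), and has no capitals because none of the 5 motifs searched was found in the full 250 bases before either start.
Gpd2 upstream start: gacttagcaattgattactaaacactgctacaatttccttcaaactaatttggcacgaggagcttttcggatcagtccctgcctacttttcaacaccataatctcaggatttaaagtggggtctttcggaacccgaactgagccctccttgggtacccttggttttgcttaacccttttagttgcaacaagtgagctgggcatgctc
Gpd2 counted start: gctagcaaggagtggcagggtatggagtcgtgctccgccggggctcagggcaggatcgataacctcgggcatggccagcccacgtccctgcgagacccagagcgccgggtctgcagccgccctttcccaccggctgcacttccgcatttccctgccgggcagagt
The full 250 bases before the counted start have a GC content of 71.2%, against 48.8% before the upstream start and a median of 52.4% over all windows. The noncoding gene A930012O16Rik lies on the other strand and shares 7.44% of the exon bases of Gpd2.

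The cytosolic glycerol phosphate dehydrogenases did not pass the test. Gpd1 (NM_010271, chromosome 15, 99717593 to 99725007, plus strand), which reduces dihydroxyacetone phosphate with NADH, held 51.8, 53.9, 57.2 and 58.0 CPM in the WT replicates in order of their number, and 49.3, 47.2, 58.3 and 48.9 CPM in the Wfs1KO replicates. Wfs1KO replicate 3 was the highest of all 8 libraries, and the other 3 Wfs1KO libraries lay below every WT library. The log2 fold change was -0.12 (SE 0.07, 95% interval -0.27 to 0.03, adjusted p = 0.281), and it was -0.20 without Wfs1KO replicate 3 (adjusted p = 0.0491). The antisense gene Gm16537 shares 13.0% of the exon bases of Gpd1. Gpd1l (NM_175380, chromosome 9, 114899339 to 114933987, minus strand) encodes a paralog of Gpd1 with the same activity that is known for its effect on the cardiac sodium channel. It ranged from 39.1 to 41.9 CPM in WT and from 39.9 to 47.2 CPM in Wfs1KO. Its log2 fold change was 0.07 (SE 0.06, 95% interval -0.06 to 0.21, adjusted p = 0.467).

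Whether the members of a pair moved apart was tested on the ratio of their counts within each library, which does not depend on scaling between libraries. Of 5 ratios compared, Got1/Got2, Mdh1/Mdh2 and Gpd1/Gpd2 were higher in all 4 Wfs1KO libraries than in any WT library (two-sided exact permutation test, p = 0.0286 each, the smallest that 4 against 4 can give, and 0.0476 adjusted over the 5 ratios). Per kilobase of exon, Gpd1 stood at 0.649, 0.811, 0.901 and 0.943 of Gpd2 in WT replicates 1 to 4 and at 1.70, 1.69, 1.75 and 1.76 of Gpd2 in Wfs1KO replicates 1 to 4. By this measure Gpd2 stood above Gpd1 in every WT library and below it in every Wfs1KO library. Genes on the other strand share 13.0% of the exon bases of Gpd1 and 7.44% of those of Gpd2. Counting had no strand option, so the order in WT, at ratios up to 0.943, is uncertain. The log2 ratio rose by 1.08, with an SD of 0.24 in WT and 0.03 in Wfs1KO.

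The Got1/Got2 ratio per kilobase ran from 0.852 to 0.926 in WT and from 1.13 to 1.41 in Wfs1KO, and its log2 value rose by 0.55. Since the level of Got2 is uncertain, no order of the 2 genes is read from the ratio lying below or above 1. The Mdh1/Mdh2 ratio averaged 0.977 ± 0.0311 over the 4 WT libraries and 1.18 ± 0.0374 over the 4 Wfs1KO libraries (± SD), a rise of 0.28 on the log2 scale. With same-numbered samples paired, each of these 3 ratios had p = 0.125 in an exact sign-flip test, the smallest that 4 pairs can give, and 0.156 adjusted over the 5 ratios.

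The other 2 ratios did not pass. Slc25a13/Slc25a12 stood between 0.116 and 0.119 per kilobase in all 4 WT libraries and was 0.121, 0.0975, 0.0974 and 0.115 in Wfs1KO replicates 1 to 4. The WT libraries were close together, and Wfs1KO replicate 1 lay above them while the other 3 lay below. The log2 difference was -0.13 (exact permutation p = 0.286, adjusted p = 0.286), and without Wfs1KO replicate 1 it was -0.19 (adjusted p = 0.0357). Gpd1l/Gpd1 rose from 0.467 ± 0.0164 to 0.536 ± 0.0559 on average, but the genotypes overlapped (log2 difference 0.19, exact permutation p = 0.0571, adjusted p = 0.0714), and without Wfs1KO replicate 3 the difference was 0.25 (adjusted p = 0.0357). Taken as same-numbered pairs, this ratio was higher in Wfs1KO in 4 of 4 pairs and had the same exact sign-flip p of 0.125 as the 3 ratios above.

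**Figure D3:**
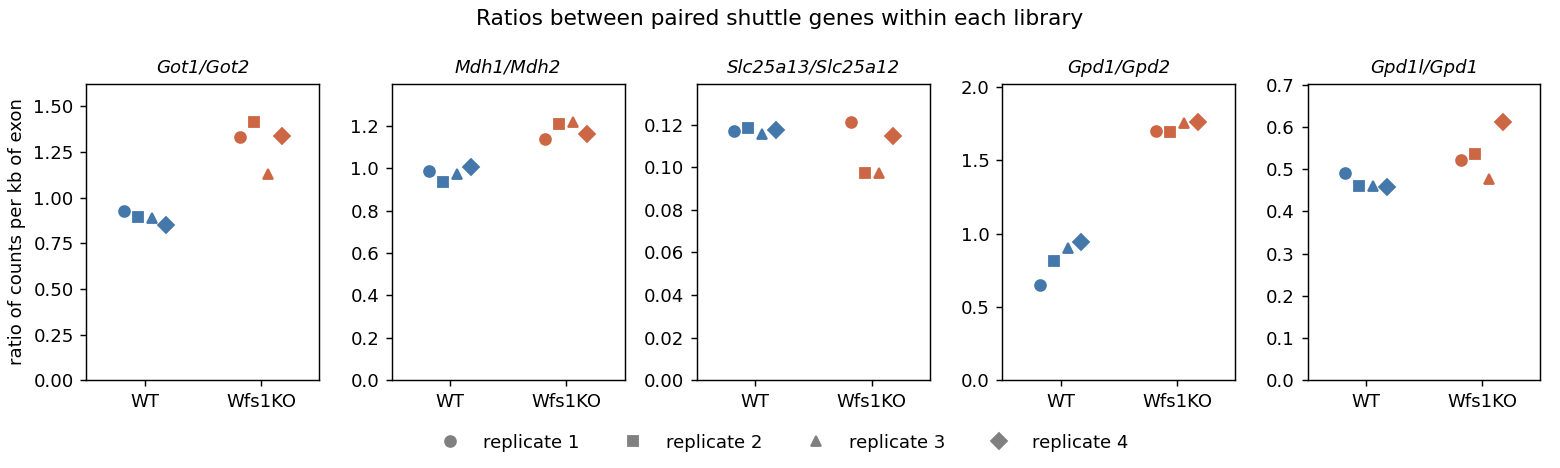
Ratio of counts per kilobase of exon between paired shuttle genes within each library, 1 marker per replicate, with axes from 0. Got1/Got2, Mdh1/Mdh2 and Gpd1/Gpd2 are higher in every Wfs1KO library than in any WT library, and the 2 paralog ratios overlap.

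Levels were compared between genes as CPM per kilobase of exon. In WT the order was Mdh2 (91.7), Mdh1 (89.6), Slc25a11 (29.3), Slc25a12 (26.2), Gpd2 (24.4), Gpd1 (19.9), Got2 (15.1), Got1 (13.5), Gpd1l (9.29) and Slc25a13 (3.08). The malate dehydrogenase genes were the most abundant by far, with Mdh1 at 3.06 times the next gene and above 97.2% of tested genes. Libraries overlapped between Mdh2 and Mdh1, between Slc25a11 and Slc25a12, between Slc25a12 and Gpd2 and between Got2 and Got1, so across libraries these neighbours lay within each other's spread. Within a library the order could still be the same throughout: in each of the 4 WT libraries Slc25a11 stood above Slc25a12. The level of Got2 is uncertain, so its order against Got1 is not read. The aspartate-glutamate carrier RNA of WT islets was mostly Slc25a12, with Slc25a13 at 0.117 ± 0.00114 of its level.

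By the group means, Gpd2 moved in Wfs1KO from the fifth place to the 8th and Got1 from the 8th to the fifth. The place of Got2 between them is uncertain, and these places did not hold in every library. Gpd1l (10.8) stood above Gpd2 (10.02) in Wfs1KO replicate 4, and Gpd1 (21.02) above Got1 (17.9) in Wfs1KO replicate 3. In WT replicates 1 and 2, Gpd2 (28.8 and 23.9) stood above Slc25a12 (26.8 and 23.4). By role, the 2 aminotransferases summed to 28.6 ± 1.71 per kilobase in WT and 35.7 ± 1.68 in Wfs1KO, and the 2 malate dehydrogenases to 181 ± 7.85 and 209 ± 10.01. Both sums were higher in every Wfs1KO library than in any WT library, as were Got1 (13.5 to 20.2) and Mdh1 (89.6 to 113.1) by themselves. Got2 (15.1 to 15.5) and Mdh2 (91.7 to 95.6) did not pass the test, so the sums restate the 2 called genes. The first sum also includes Got2, whose level is uncertain. The 3 carriers summed to 58.6 ± 4.75 and 59.9 ± 1.10, and the 2 cytosolic glycerol phosphate dehydrogenases to 29.2 ± 1.28 and 28.2 ± 2.14, with overlap in both. Gpd2, the mitochondrial side of the glycerol phosphate shuttle, stood at 24.4 ± 2.98 in WT and 10.6 ± 0.926 in Wfs1KO.

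**Figure D4:**
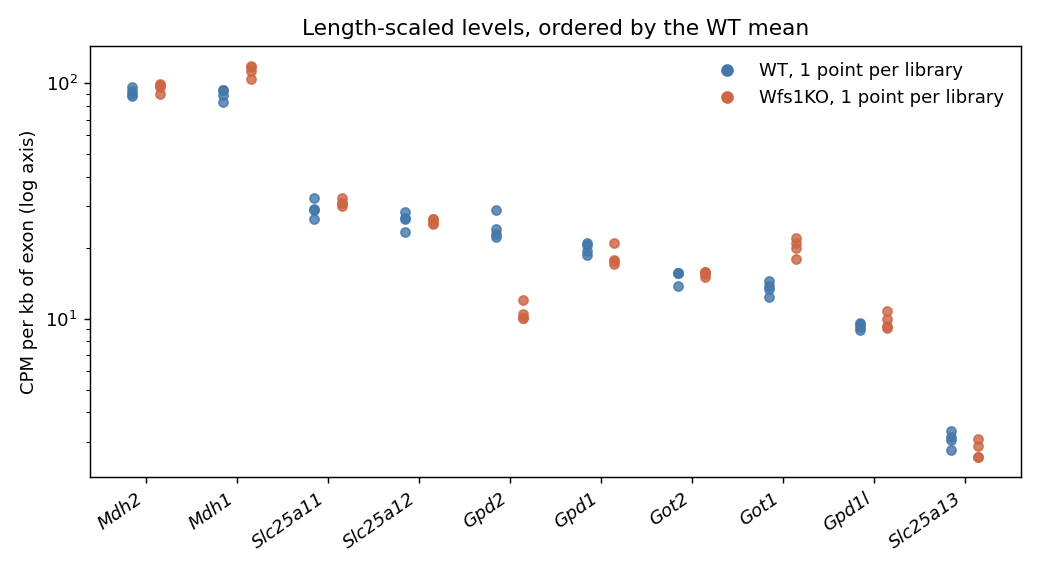
Length-scaled level (CPM per kilobase of exon, log axis) of each shuttle gene, ordered by the WT mean, with 1 point per library. Mdh2 and Mdh1 stand near 90 in WT and Slc25a13 near 3, and Gpd2 is the 1 gene whose Wfs1KO points lie wholly below its WT points.

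Genes around the shuttles were taken from 5 lists. The first held lactate dehydrogenases and monocarboxylate transporters, and 0 of 10 tested members passed edgeR's test in either direction (median 0.17). Over all tested genes 10.4% were called higher and 8.49% lower, so with 10 genes nothing about the list is read from this count. Of these 10, Ldha (0.46, adjusted p = 0.0513) and Slc16a7 (0.52, adjusted p = 0.117) had an unadjusted p under 0.05 and were chosen after their values were seen. DESeq2 and limma-voom each called 1 gene of this list, Ldha. So did edgeR with no filter on low counts, with the 20 most abundant genes left out, with replicates 1 and 2 against 3 and 4 as a factor and without Wfs1KO replicate 3. A fit that held the acinar score as a covariate called both Ldha and Slc16a7. In replicates 1 and 2 alone Ldha was higher and Emb lower. Ldha, the lactate dehydrogenase gene that beta cells hold low, stood at 11.5 ± 0.941 CPM in WT and 15.6 CPM in Wfs1KO, where replicate 1 (20.7 CPM) was the highest library. The lactate transporter gene Slc16a1 was at 2.28 ± 0.185 CPM in WT.

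Of 14 tested carriers of other substrates across the inner mitochondrial membrane, 1 fell and 0 rose in edgeR (median -0.02), 2 had an unadjusted p under 0.05, and DESeq2 gave the same counts. This was Slc25a25 (-0.33, SE 0.08, adjusted p = 0.0103), a calcium-dependent carrier of ATP-magnesium and phosphate. Aspartate and glutamate enzymes outside the shuttle moved in both directions, with 3 of 15 higher and 2 lower (median -0.0022), where 10.4% of all tested genes were higher and 8.49% lower. Gad1, which turns glutamate into GABA, fell by 1.30 on the log2 scale (273 ± 12.1 to 111 CPM, adjusted p = 1.31e-08), and Glul, glutamine synthetase, fell by 0.64 (adjusted p = 6.90e-05). The serine synthesis aminotransferase gene Psat1 rose by 1.80 (adjusted p = 4.41e-07). Also higher, and chosen after their values were seen, were the alanine aminotransferase gene Gpt2 (1.11) and the asparagine synthetase gene Asns (0.78), neither of which passed in replicates 3 and 4 alone, where their log2 fold changes were 1.18 (adjusted p = 0.149) and 0.85 (adjusted p = 0.0730) and so no smaller than in all 8 libraries.

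Enzymes that cycle malate, citrate and pyruvate had 5 of 13 tested members lower and 2 higher (median -0.14), against 8.49% lower and 10.4% higher over all tested genes. Pcx, pyruvate carboxylase, which feeds oxaloacetate to the mitochondrial pool, fell by 0.54 (adjusted p = 1.17e-04) and Idh2 by 0.35 (adjusted p = 3.37e-04). Also lower, and chosen after their values were seen, were Acly (-0.49) and Fh1 (-0.44). Pck2, mitochondrial phosphoenolpyruvate carboxykinase, rose by 0.48 (adjusted p = 3.18e-04). The malic enzyme gene Me1, chosen after its value was seen, stood at 0.28 (adjusted p = 0.0453). Its call was lost at a similar log2 fold change with the replicate block (0.28, adjusted p = 0.0619) and in DESeq2 (0.27, adjusted p = 0.0772). It was also lost when WT replicate 2, 3 or 4 or Wfs1KO replicate 2 or 4 was left out (0.21 to 0.29, adjusted p from 0.0854 to 0.138). Me1 was not called either in limma-voom (adjusted p = 0.0596), with DESeq2's scaling in edgeR (0.0566) or without the 20 most abundant genes (0.0549). Nor did it pass in replicates 1 and 2 alone (0.21, adjusted p = 0.287) or in replicates 3 and 4 alone (0.32, adjusted p = 0.123).

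Enzymes of glycerol phosphate and triose phosphates showed 3 of 18 higher and 3 lower (median 0.0077), beside 10.4% and 8.49% of all tested genes. The phosphatidate phosphatase gene Lpin2 (0.65, adjusted p = 2.70e-06) and the acyltransferase gene Agpat4 (0.80, adjusted p = 4.96e-04) rose, and Aldoc fell by 0.58 (adjusted p = 3.89e-04). Chosen after their values were seen, the glycerol kinase gene Gk rose (0.53), while Gpam (-0.33), which acylates glycerol 3-phosphate, and Lpin1 (-0.33) fell. Gk was no longer called when WT replicate 1, WT replicate 4 or Wfs1KO replicate 1 was left out (adjusted p from 0.0613 to 0.0696), and neither Gk (0.296) nor Gpam (0.188) passed in replicates 3 and 4 alone.

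**Figure D5:**
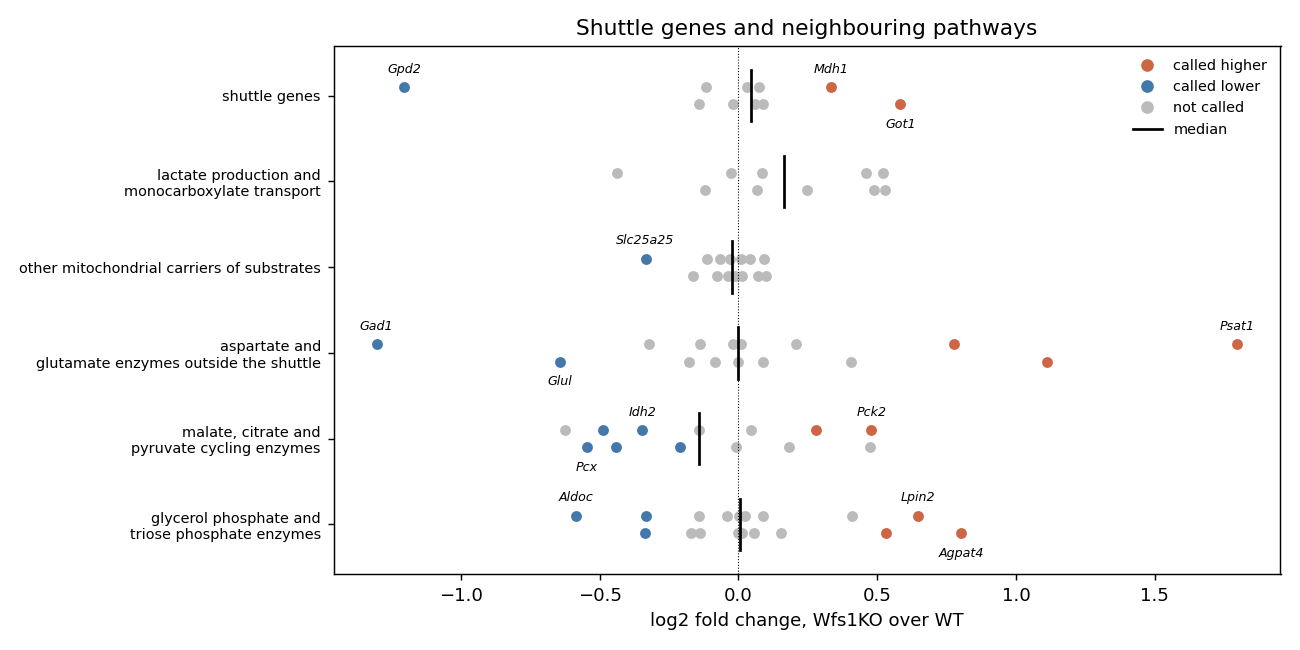
Log2 fold change, Wfs1KO over WT, of the shuttle genes and of the tested members of 5 neighbouring lists, 1 point per gene, with the median of each list as a bar and called genes in colour. Gpd2 and Gad1 are the farthest to the left and Psat1 the farthest to the right, and no gene of the lactate list is called.

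RefSeq promoter windows were found for 9 of the 10 members, Gpd1 being the one without. Besides the C/EBP-ATF letters before Got1, the letters TGACGTCA (a cyclic AMP response element, in 1.55% of all windows) were found before Mdh2. The E-box CACGTG (6.02% of windows) was found before Gpd1l and Slc25a13, and the Maf recognition half-site TGCTGA (16.1%) before Gpd1l and Mdh1. The ER stress response element, CCAAT followed at a fixed distance by CCACG (0.113%), was found before none of them. All were searched on both strands in the 250 bases before each start, and each match is a description of letters. Of the 3 genes that were called, Got1 and Mdh1 each held 1 of the 5 motifs and Gpd2 held none.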

How the data were processed

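Poly(A) RNA of 8 islet samples was sequenced. The submitters' processing notes name STAR 2.6.0a and HOMER 4.11.1. The deposited counts are raw: per the file headers, HOMER summed reads over RefSeq exons in mm10, without normalization or a strand option. The authors' deposited table gives log2 fold changes of their own comparison and its p-values, and the processing notes name DESeq2. The authors' transformed log2 values per library were not used here.

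Counts were tested over all genes that passed filterByExpr (minimum count 10, minimum total 15) with edgeR 4.0.16 in R 4.3.3, by the robust quasi-likelihood F-test after TMM scaling. CPM use TMM-scaled library sizes, and values per kilobase divide them by the exon length in the deposited file. SE was taken as the size of the log2 fold change divided by the square root of F. Ratios were compared with exact permutation tests over samples. The tests were also run on simulated data without differences between replicate numbers, and for edgeR with the same spread for every gene. These libraries differ from that setting, so no support is drawn from the check. Alternatives used DESeq2 1.42.0 and limma 3.58.1, other filters and scalings, covariates, blocks and left-out libraries. Replicate numbers come from the labels. After subtracting each genotype's mean, same-numbered samples correlated over genes at 0.153, 0.443, 0.269 and 0.188 (genes are not independent replicates). Differently numbered samples were not correlated for comparison, so these values do not establish pairs. The main tests did not pair samples, and same-numbered pairs were used only in the replicate block and the sign-flip tests.

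All members, and up to 3 called genes with the smallest adjusted p from each neighbouring list, were named by rule. The values of 1 gene of these lists are not reported here. Members, lists and alternatives were chosen with earlier results of these data known. Symbols Gyk and Gpat3 were matched to Gk and Agpat9 by alias. Exon overlaps and shared 50-base words come from GENCODE M21 (GRCm38), promoter sequences from RefSeq.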

Additional observations from a re-analysis of the deposited data

Results flagged for a closer look

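Of 70 groups of 4 libraries examined, 3 held a library set apart from the other 3 of its genotype, and chance alone sets apart about 1 group in 20. Got2 was lowest in WT replicate 2, at 32.2 CPM, while the other WT libraries stood between 36.3 and 36.5 CPM, and without that library its log2 fold change was -0.0096 in place of 0.03. Pck2 was highest in WT replicate 3, at 174 CPM, against 148 to 152 CPM in the other WT libraries. The log2 count ratio Gpd1l/Gpd1 was highest in WT replicate 1, at -0.36, against -0.46 to -0.47 in the other 3.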

How the results depend on the processing

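Got1 and Gpd2 kept their direction and their call under all 19 alternatives, from 0.51 to 0.63 for Got1 and from -1.38 to -1.04 for Gpd2 (adjusted p at most 0.00437 and 3.19e-05). Mdh1 ran from 0.24 to 0.41 and lost its call in replicates 3 and 4 alone, where members called higher numbered 1. Members called lower numbered 1 to 2 with 1 library left out, 2 without Wfs1KO replicate 3, when Gpd1 was called. With the replicate block no member gained or lost a call (Gpd2 -1.20, Got1 0.58, Mdh1 0.34). With same-numbered pairs the ratio differences of 0.55 (Got1/Got2), 0.28 (Mdh1/Mdh2) and 1.08 (Gpd1/Gpd2) could not pass, since 4 pairs allow no p under 0.125. With 1 library left out, Slc25a13/Slc25a12 ran from -0.19 to -0.083 and Gpd1l/Gpd1 from 0.13 to 0.25. Uncalled genes near 0 changed sign: Mdh2 (-0.025) and Slc25a11 (-0.022) in replicates 3 and 4 alone, Slc25a12 in replicates 1 and 2 alone (0.026), and with 1 library left out Got2 from -0.0096 to 0.051 and Slc25a12 from -0.071 to 0.023. The cause was not tested. All tested genes called higher and lower numbered 1635 and 1335, against 964 and 882 in replicates 3 and 4 alone and 962 and 782 at an adjusted p under 0.01.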

Other observations

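Gapdh encodes the glycolytic enzyme that makes the cytosolic NADH the shuttles carry. Its counts stood at 3.68 ± 0.246 CPM in WT and between 3.02 and 4.60 CPM in Wfs1KO. Of the 50-base words in its transcripts 25.1% also occur in other genes, among them annotated copies such as Gm7336. How such reads were counted is not given in the sources used here. The level of Gapdh is therefore uncertain and is not ranked against other genes. Tpi1, which interconverts the triose phosphates, 1 of which is the substrate of Gpd1, stood at 75.7 ± 3.36 CPM in WT (log2 fold change 0.03, adjusted p = 0.792).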
